A study of Mus musculus with 11 samples.

Results

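The neurofilament genes are Nefl, Nefm, Nefh and Ina, which encode the light, medium and heavy neurofilament subunits and alpha-internexin. They were taken by symbol, and all 4 were found among the 32531 genes of the count tables. The tables come from TRAP-seq, in which ribosomes carrying an EGFP tag are pulled down with an antibody and the RNA they hold is sequenced. All mice were adult and of the Glt25d2-EGFP/Rpl10a line DU9, in which regulatory DNA of Glt25d2 (now Colgalt2), active in pyramidal neurons of cortical layer 5, drives an EGFP-tagged ribosomal protein. The groups of immunopurified (IP) RNA were short-access intravenous cocaine self-administration, yoked controls and saline self-administration, with 3 libraries each, numbered 1 to 3. There was also 1 unbound library, of RNA left after the pull-down, from the cocaine group, and 1 input library, of RNA before it, from the saline group. Cerebral cortex is the labelled tissue, but the extraction protocol speaks of whole striatum. The sources used here do not say what yoked animals received, nor whether a library is 1 animal or a pool, so p-values measure only the spread between libraries.

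Neurofilaments are the intermediate filaments of neurons. The light subunit can form filaments on its own in vitro. The medium and heavy subunits assemble with it and carry long tails that project from the filament and are phosphorylated at lysine-serine-proline repeats. Alpha-internexin joins the other subunits in the central nervous system. The filaments fill large axons, where they set axon calibre and through it the speed of conduction, and large projection neurons of layer 5 are rich in them.

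The sequence of the 4 genes shows both what they share and what sets the heavy subunit apart. Positions and sequences are on GRCm38 (mm10), the build the reads were aligned to, with exons as in GENCODE M21. Each gene has a coding exon of 125 bases near the end of the rod domain, the coiled stretch through which subunits pair. It is exon 2 in Nefl, Nefm and Ina and exon 3 in Nefh. The copies of Nefl and Ina are shown because counting depends on telling the subunits apart, and capitals mark bases identical in both.
Nefl, chr14:68085974-68086098, plus strand: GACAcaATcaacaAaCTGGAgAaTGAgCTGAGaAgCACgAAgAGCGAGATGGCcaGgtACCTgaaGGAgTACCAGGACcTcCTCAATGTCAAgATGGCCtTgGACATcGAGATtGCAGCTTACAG
Ina, chr19:47021833-47021957, plus strand: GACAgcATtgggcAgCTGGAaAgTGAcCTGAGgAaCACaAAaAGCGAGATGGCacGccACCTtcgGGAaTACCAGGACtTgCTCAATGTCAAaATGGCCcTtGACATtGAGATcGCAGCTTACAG
These copies were identical at 95 of 125 bases (76.0%), and their longest identical run was 11 bases. Along the whole transcripts, 0 of 3285 windows of 50 bases in the Nefm transcript that ends short of Nefl and 0 of 3945 in Nefh occurred in another gene. In Nefl 1059 of 3331 windows did, all in the other Nefm transcript, of the opposite strand, and in Ina 407 of 3191, all in Nt5c2.

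The tail of the heavy subunit is a run of short repeats, of which 180 bases of exon 4 are shown, coding positions 1555 to 1734, with capitals at the in-frame codons for lysine, serine and proline.
Nefh, chr11:4940884-4941063, minus strand: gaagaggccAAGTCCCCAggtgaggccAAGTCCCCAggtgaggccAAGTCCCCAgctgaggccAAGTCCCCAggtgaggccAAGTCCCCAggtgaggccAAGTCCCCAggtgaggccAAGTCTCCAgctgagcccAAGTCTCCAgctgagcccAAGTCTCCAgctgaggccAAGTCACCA
This stretch holds 10 copies of the motif. The search took AAA or AAG followed by TCN and CCN, in frame on the coding strand, and left out other serine codons. Nefh held 49 copies in its coding sequence of 3270 bases, and none of the 21877 coding sequences searched held more. Nefm held 4, with more in 10 other genes. Nefl and Ina held 0, as did most genes, since 6.61% of coding sequences had any copy. Of 3945 windows of 50 bases along the Nefh transcript, 150 (3.80%) occurred more than once within the gene, so a read lying wholly in the repeat can map to several places of the same gene.

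**Figure D1:**
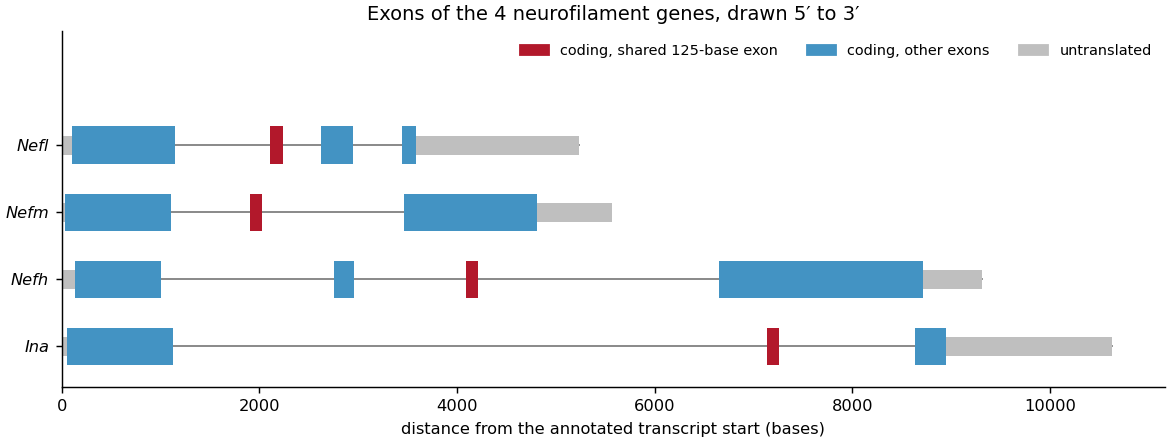
Exons of an annotated transcript of each of Nefl, Nefm, Nefh and Ina, drawn to scale 5′ to 3′ (x axis, bases from the transcript start). For Nefm it is the transcript that ends short of Nefl, and the other, which reaches across Nefl, is not drawn. Red boxes are the 125-base coding exon that the 4 genes share, blue boxes are other coding parts, grey boxes are untranslated and lines are introns.

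Nefl and Nefm are neighbours on chromosome 14 that are read in opposite directions, with Nefl at 68083863 to 68089095 on the plus strand and Nefm at 68082590 to 68124846 on the minus strand. The second annotated Nefm transcript reaches across Nefl, and its exons overlap 1108 bases of Nefl exons, 32.8% of their length. The RefSeq model of Nefm (68119545 to 68125004) has no such overlap and ends 30449 bases from Nefl. Nefh lies on the minus strand of chromosome 11 at 4938754 to 4948064. Ina lies on the plus strand of chromosome 19 at 47014698 to 47025327, and 456 bases of its exons (14.1%) overlap Nt5c2 on the opposite strand. Which annotation and strand setting the authors counted with is not stated, so reads of an overlapping opposite strand could add to these counts, or could have been set aside as ambiguous.

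Library depth ran between 20926712 and 53862653 gene counts, and each neurofilament gene had at least 938 counts in every library, so spread between libraries rather than counting error limits what follows. Levels are in CPM, a gene's count per unit of library size, TMM scaled over the 11 libraries, except that values per kilobase use the library's total gene count with no TMM scaling. The labelled tissue was checked on marker genes. The 7 markers of cortical excitatory neurons summed to 1464 to 1954 CPM across all libraries, with the vesicular glutamate transporter Slc17a7 at 263 to 459.8 CPM and the transcription factor Emx1 at 4.48 to 11.4 CPM. The 9 markers of striatal projection neurons summed to 347 to 659 CPM, with the dopamine receptor Drd1 at 17.1 to 34.0 CPM and the phosphodiesterase Pde10a at 63.7 to 257 CPM, so RNA of both lists was present. Colgalt2 stood at 138 to 152 CPM in the IP libraries numbered 1, at 76.3 to 105 CPM in the 6 numbered 2 or 3, at 70.3 CPM in the unbound and at 81.4 CPM in the input library. The libraries numbered 1 stand apart from the rest in this way in all 3 groups. Lane cannot be told apart from group, since cocaine, yoked and saline IP libraries, unbound and input each ran on a lane of their own.

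Set per kilobase of exon, the order of the subunits was Nefl, Nefm, Ina and Nefh in 11 of 11 libraries. Over the 9 IP libraries Nefl stood at 147 to 250.3 CPM per kilobase and Nefm at 64.0 to 141. Ina stood at 31.6 to 48.7 CPM per kilobase and Nefh, the heavy subunit, at 10.6 to 24.7. The ranges of neighbours in this order did not overlap across the 9 IP libraries. Nefl exceeded 99.1% to 99.4% of the genes detected in each IP library, Nefm 96.7% to 98.8%, Ina 91.8% to 95.1% and Nefh 78.7% to 89.7%. As a share of the 4 genes per kilobase, Nefl held 53.9% to 64.2% and Nefh 3.82% to 5.30%. With the longest annotated transcript as length, which for Nefm is the one of 3680 bases that reaches across Nefl, in place of 5782 bases of merged exons, Nefm stood at 100.6 to 222 CPM per kilobase, the order was the same in 11 of 11 libraries, and the ranges of Nefl and Nefm overlapped.

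Nefl, the light subunit, stood at 813, 518 and 556 CPM in cocaine IP libraries 1, 2 and 3, at 855, 485 and 519 CPM in yoked IP libraries and at 858, 491 and 549.8 CPM in saline IP libraries. It stood at 483 CPM in the unbound and at 513 CPM in the input library. Library 1 was the highest of its group in all 3 groups, and all 3 libraries numbered 1 lay above the other 6. Nefm, the medium subunit, stood at 465, 376 and 496 CPM in cocaine IP libraries 1, 2 and 3, at 824, 359 and 435 CPM in yoked IP libraries and at 807, 405 and 424 CPM in saline IP libraries. It stood at 362 CPM in the unbound and at 356 CPM in the input library. Here cocaine library 1 stood out less: it lay below cocaine library 3 and above the other libraries numbered 2 or 3. Yoked and saline libraries 1 were the highest of all.

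Nefh, the heavy subunit, stood at 71.5, 44.5 and 45.2 CPM in cocaine IP libraries 1, 2 and 3, at 99.5, 41.1 and 46.2 CPM in yoked IP libraries and at 95.9, 46.7 and 49.0 CPM in saline IP libraries. It stood at 44.7 CPM in the unbound and at 45.9 CPM in the input library. The libraries numbered 1 again lay above the other 6, with cocaine library 1 the lowest of the 3. Ina, alpha-internexin, stood at 115.2, 108 and 111 CPM in cocaine IP libraries 1, 2 and 3, at 159, 102 and 104 CPM in yoked IP libraries and at 162, 103 and 114.1 CPM in saline IP libraries. It stood at 83.6 CPM in the unbound and at 115.4 CPM in the input library. For Ina the libraries numbered 1 cleared the other 6 only narrowly, since cocaine library 1 lay just above saline library 3.

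**Figure D2:**
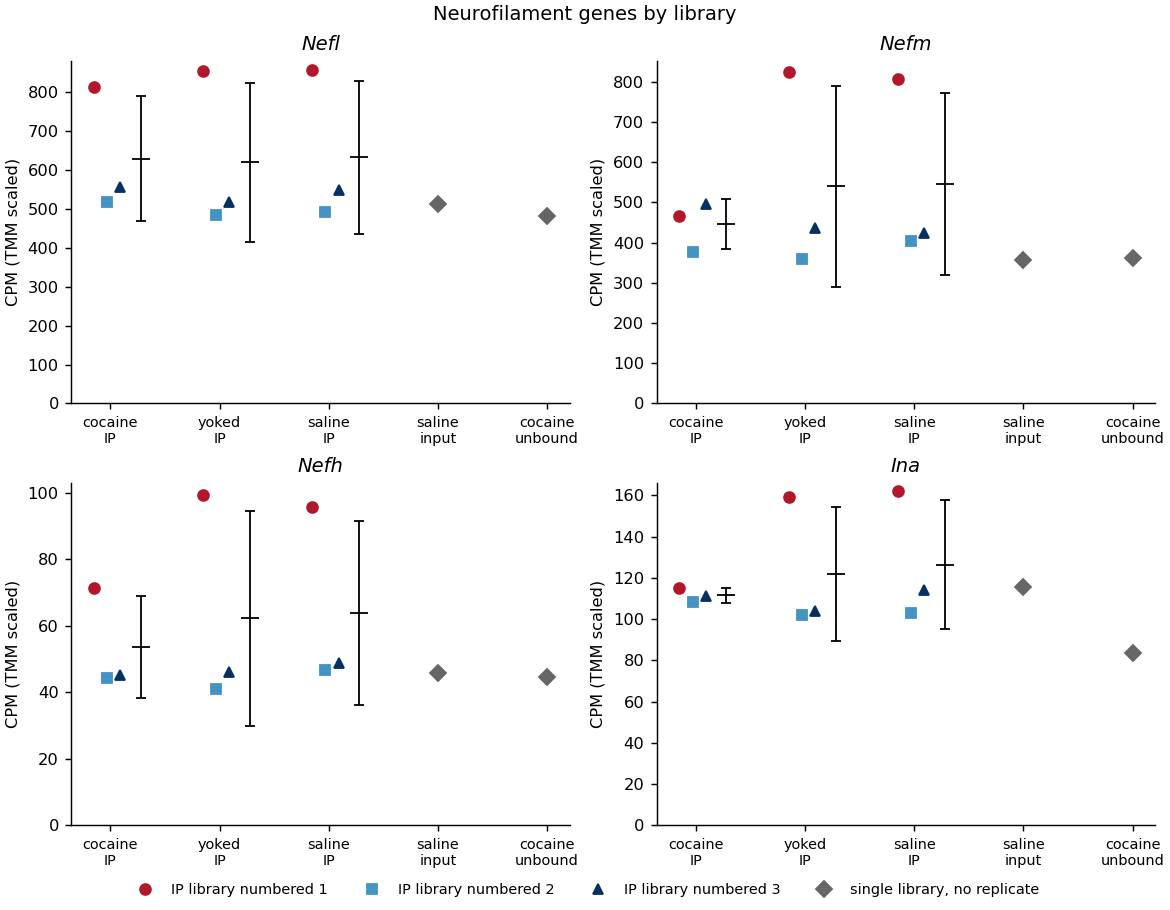
Level of each neurofilament gene in every library (y axis, CPM after TMM scaling, starting at 0). Points are libraries, with shape and colour for the replicate number, and bars are the mean and SD of 3 libraries; the libraries numbered 1 are high for each gene in the yoked and saline groups, and cocaine library 1 is near its group for Nefm (465 CPM) and Ina (115.2 CPM).

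No neurofilament gene passed the test in any comparison of treatments. Cocaine IP against saline IP asks whether cocaine intake changed the RNA recovered in the IP libraries, and yoked IP enters as the second control. Markers of layer 5 pyramidal tract neurons had median log2 ratios over input of 1.04, −0.02 and 0.26 in saline IP libraries 1, 2 and 3. Over unbound they had 1.46, 0.68 and 0.59 in cocaine IP libraries. The IP libraries thus differed in how far these markers were enriched, so the contrasts are not readings of purified RNA alone. Across 16417 genes, edgeR's quasi-likelihood test with Benjamini-Hochberg adjustment called 0 of 4 members in each of the 3 contrasts, beside 0% of all genes tested in each. The same held in DESeq2, and 168, 66 and 182 genes had an unadjusted p under 0.05 in these contrasts, with cocaine over saline first and cocaine over yoked last. In bulk RNA, fewer cells of a type and less RNA per cell cannot be told apart.

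In cocaine IP against saline IP libraries, Nefl averaged 629 ± 160.4 CPM in cocaine and 633 ± 197 CPM in saline (SD, n = 3 each), a log2 fold change of 0.01 ± 0.31 (SE). Nefm averaged 446 ± 62.4 CPM in cocaine and 545 ± 227 CPM in saline, a log2 fold change of −0.27 ± 0.37 (SE). The 95% interval of the Nefm value, 0.467-fold to 1.47-fold, leaves room for a sizeable change in either direction. It is from the fit without replicate number, so the split by number widens it. With the number as a block the SE was 0.17 for Nefm and 0.13 for Nefh, against 0.37 and 0.41 without it. Nefh averaged 53.7 ± 15.4 CPM in cocaine and 63.8 ± 27.8 CPM in saline, a log2 fold change of −0.23 ± 0.41 (SE). Ina averaged 112 ± 3.50 CPM in cocaine and 126 ± 31.4 CPM in saline, a log2 fold change of −0.16 ± 0.23 (SE). The edgeR adjusted p was 0.9998 for each of the 4.

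Yoked IP libraries gave small differences from saline for all 4 genes. Nefm averaged 539 ± 249.7 CPM in yoked IP, Nefl 619 ± 205, Nefh 62.3 ± 32.3 and Ina 122 ± 32.6 CPM (SD, n = 3). The log2 fold changes over saline were −0.03 for Nefl, −0.01 for Nefm, −0.03 for Nefh and −0.05 for Ina. In cocaine IP against yoked IP they were 0.04 for Nefl, −0.26 for Nefm, −0.20 for Nefh and −0.11 for Ina, with edgeR adjusted p between 0.972 and 0.989. These contrasts share libraries, so their values are not independent.

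The lower cocaine means of Nefm and Ina rested on the libraries numbered 1. Between same-numbered cocaine and saline libraries, the log2 difference of Nefm was −0.77 for number 1, −0.12 for number 2 and 0.27 for number 3. For Ina it was −0.47, 0.06 and 0.00. For Nefh it was −0.40, −0.08 and −0.07, below 0 for each number. Without the 3 libraries numbered 1, the cocaine against saline log2 fold change was 0.09 for Nefm and 0.03 for Ina, and cocaine against yoked was 0.16 for Nefm, 0.06 for Nefh and 0.11 for Ina, the sign turned in each case and none past the test in edgeR. Leaving out saline library 1 alone turned the Nefm value over saline to 0.12, and leaving out yoked library 1 alone turned the one over yoked to 0.19.

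**Figure D3:**
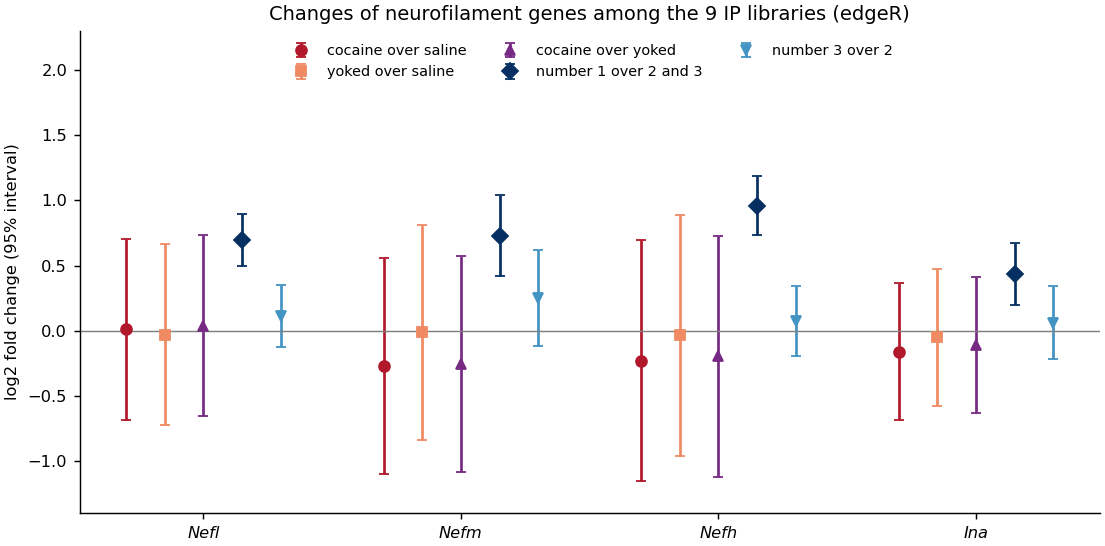
Log2 fold change of each neurofilament gene in edgeR (y axis) with its 95% interval, for 3 treatment contrasts and 2 contrasts of replicate number among the 9 IP libraries. Treatment contrasts are from the fit without replicate number and contrasts of number from the fit with both, so widths cannot be compared between the 2 kinds. Intervals of the treatment contrasts all span 0, and those of number 1 over numbers 2 and 3 lie above it for all 4 genes, centred between 0.43 (Ina) and 0.96 (Nefh).

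The 4 genes rose together in the IP libraries numbered 1 against those numbered 2 and 3, fitted with treatment in the model. Nefl averaged 842 ± 25.02 CPM in libraries numbered 1 (n = 3) and 519.9 ± 29.2 CPM in the other 6 (SD), 1.62-fold higher (log2 0.70 ± 0.09 SE, edgeR adjusted p = 2.69e-05). Nefm averaged 699 ± 203 CPM in libraries numbered 1 and 416 ± 48.8 CPM in the others, 1.66-fold higher (log2 0.73 ± 0.15 SE, edgeR adjusted p = 0.000708). Nefh had the largest rise of the 4, at 89.0 ± 15.2 CPM in libraries numbered 1 and 45.4 ± 2.62 CPM in the others, 1.95-fold higher (log2 0.96 ± 0.11 SE, edgeR adjusted p = 4.19e-06). Ina had the smallest, at 146 ± 26.3 CPM in libraries numbered 1 and 107 ± 4.88 CPM in the others, 1.35-fold higher (log2 0.43 ± 0.11 SE, edgeR adjusted p = 0.00420).

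All 4 of 4 members rose, beside 27.6% of the 16417 genes that rose and 27.7% that fell. For Nefl, Nefh and Ina the 3 libraries numbered 1 lay above the other 6 without overlap, as for 22.9% of genes, and for Nefm they overlapped. Ranked by log2 fold change, Nefh exceeded 95.7% of genes, Nefm 89.1%, Nefl 87.8% and Ina 74.4%, with a median of 0.01 over all genes. Libraries numbered 3 and 2 differed little: log2 fold changes lay between 0.06 (Ina) and 0.25 (Nefm), and edgeR called 0 of 4 members and 0% of genes. In that contrast 320 genes had an unadjusted p under 0.05, and DESeq2 called 44.

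Markers of cell types moved with this contrast, and their part in it was not tested. Of 14 markers of layer 5 pyramidal tract neurons 13 rose, with a median log2 fold change of 0.88 and a summed level of 1645 to 1894 CPM in libraries numbered 1, against 876 to 1117 CPM in the other 6. Of 7 cortical excitatory markers 3 rose and 1 fell (1836 to 1954 CPM summed in libraries numbered 1, against 1464 to 1715 CPM). Of 9 striatal projection markers 5 fell and 1 rose (347 to 420.5 CPM summed in libraries numbered 1, against 544 to 659 CPM). Fezf2, which specifies the layer 5 pyramidal tract neurons, had 132 to 157 CPM in libraries numbered 1, against 54.5 to 82.9 CPM in the others. Of 8 oligodendrocyte markers 6 fell (543 to 687 CPM summed in libraries numbered 1, against 1270.4 to 1660 CPM), and of 8 astrocyte markers 5 fell and 1 rose (1025 to 1407 CPM, against 2287 to 2881 CPM). Of 8 markers of inhibitory interneurons 7 fell and 1 rose (511 to 664 CPM, against 769 to 997 CPM). The 1 that rose was Pvalb (log2 0.45), which is also in the list of parvalbumin basket cells. Of the 4 markers in that list 2 fell and 1 rose (151 to 174 CPM, against 230 to 256 CPM). Of 7 microglial markers 6 fell (8.39 to 13.7 CPM, against 20.6 to 35.3 CPM), and among 8 markers of vessel cells 5 rose and 2 fell (19.4 to 28.8 CPM, against 16.2 to 24.3 CPM). RNA kept in the nucleus fell in 4 of 4 genes (173 to 380.3 CPM, against 2272 to 7122 CPM). In the input library the layer 5 list summed to 929 CPM and the nuclear list to 5013 CPM. In the unbound library they summed to 827 and 14497 CPM. No marker of these lists was at 0 counts in any library.

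For Nefm, library 1 stood less far above libraries 2 and 3 in the cocaine group than in the other groups. The log2 difference of library 1 from the mean of libraries 2 and 3 was 0.11 in cocaine IP, 1.09 in yoked IP and 0.96 in saline IP for Nefm. It was 0.61, 0.79 and 0.72 for Nefl, 0.68, 1.21 and 0.999 for Nefh, and 0.08, 0.65 and 0.58 for Ina, in the same order of groups. A test of the difference itself was chosen after these values were seen. It sets 1 library numbered 1 against 1 other, each assumed to vary like the libraries numbered 2 and 3, so it compares those libraries more than the treatments. It gave for Nefm in cocaine minus yoked a log2 value of −0.97 ± 0.23 (SE, edgeR adjusted p = 0.0316), a contrast in which 3.19% of genes were called. For Nefm in cocaine minus saline, which rests on the same cocaine library, the call was not made, at −0.86 ± 0.23 (SE, edgeR adjusted p = 0.0888), with 0.524% of genes called. The edgeR adjusted p in cocaine minus yoked was 0.107 for Ina, 0.160 for Nefh and 0.675 for Nefl. The Nefm value lost its call without cocaine library 3 (edgeR adjusted p = 0.0648) and without yoked library 2 (0.0772). Cocaine library 1 also stood apart in quality. The ribosomal RNA gene Rn45s took 8.001% of its gene counts, against 4.09% to 6.60% in the other 8 IP libraries. Reads without a unique position made up 47.0%, against 35.6% to 40.6%. In genes with a count it was near the other libraries numbered 1, at 18695 against 18917 in yoked and 18906 in saline. The IP libraries numbered 2 or 3 had 19639 to 20383. The 4 markers of parvalbumin basket cells summed to 174 CPM in cocaine library 1, against 162 CPM in yoked and 151 CPM in saline library 1. Among them Pvalb was higher in cocaine library 1 (82.1 CPM) than in yoked (43.4) and saline (48.8) library 1, and Syt2 was lower (34.4, against 42.5 and 40.4 CPM), as was Kcnc1. The part of these in the Nefm value was not tested.

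Genes that work with neurofilaments were counted in 7 lists of 70 genes in all. Between treatments 0 of 70 passed the edgeR test in each contrast, with median log2 fold changes of −0.06 for cocaine over saline, 0.02 for yoked over saline and −0.07 for cocaine over yoked. In libraries numbered 1 against numbers 2 and 3, 22 rose and 21 fell, shares near the 27.6% of all genes that rose and the 27.7% that fell, with a median log2 fold change of 0.09 beside 0.01 over all genes. The lists are therefore described by their members, with nothing read from their counts. The microtubule and spectrin skeleton of the axon had 10 of 20 genes up and 6 down, a median of 0.29. Its neuronal beta-tubulin Tubb3 stood at 490 CPM in cocaine, 344 in yoked and 392 in saline library 1, against 182 to 204 CPM in the 6 other IP libraries (log2 1.09 ± 0.10 SE). Tubb2a, another beta-tubulin, stood at 1599, 1046 and 1376 CPM in cocaine, yoked and saline library 1, against 542 to 632 CPM in the 6 others (log2 1.17 ± 0.11 SE). Tubulin genes are close copies of each other, so reads shared between them make these values less certain.

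Linkers and transport motors had 3 of 9 genes up and 4 down. Kif5a, a kinesin heavy chain that moves neurofilament cargo along axons, stood at 441 CPM in cocaine, 665 in yoked and 551 in saline library 1, against 1067 to 1589 CPM in the 6 others (log2 −1.29 ± 0.11 SE). Its relative Kif5b fell as well (log2 −1.18 ± 0.12 SE). In the libraries numbered 1 the subunit genes were thus higher and these motor genes lower. Among 7 genes of filament turnover 3 rose and 2 fell. Hspb1, a small heat shock protein, rose at a level under 1 CPM (log2 1.32 ± 0.45 SE, edgeR adjusted p = 0.0218).

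Genes of large, fast-conducting neurons had 2 of 12 up and 4 down, a median of −0.03. The potassium channel gene Kcnc1 stood at 43.1 CPM in cocaine, 64.5 in yoked and 53.6 in saline library 1, against 136 to 165 CPM in the 6 others (log2 −1.50 ± 0.11 SE). Kcna2, another potassium channel gene, fell too (log2 −1.24 ± 0.13 SE). Tail kinases, phosphatases and the isomerase had 2 of 12 up and 2 down, and the pair of genes for proteins that bind neurofilament messenger RNA had 1 down. Of 8 other intermediate filament genes 2 rose and 2 fell. Prph, peripherin of peripheral neurons, was at 1.05 to 3.42 CPM and Gfap of astrocytes at 8.96 to 25.3 CPM in the 11 libraries.

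**Figure D4:**
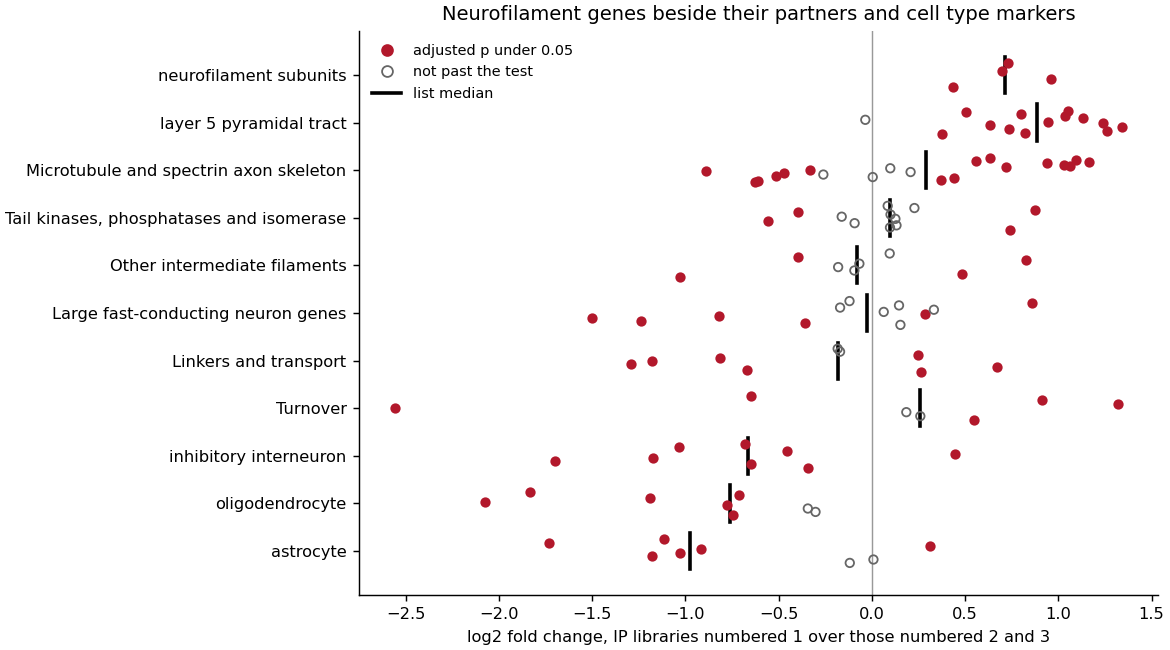
Log2 fold change of IP libraries numbered 1 over those numbered 2 and 3 (x axis, edgeR) for neurofilament genes, partner lists and cell type markers. Each point is a gene, filled red where its adjusted p is under 0.05, and bars are list medians, 0.71 for the neurofilament genes, 0.88 for layer 5 markers and −0.97 for astrocyte markers.

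The balance of subunits within a library does not depend on library scaling, so it was taken as the log2 ratio of counts over Nefl. Nefm over Nefl was −0.81, −0.46 and −0.16 in cocaine IP libraries 1, 2 and 3, −0.05, −0.43 and −0.25 in yoked IP libraries and −0.09, −0.28 and −0.37 in saline IP libraries. It was −0.42 in the unbound and −0.53 in the input library. Cocaine library 1 was the lowest of all 11. Nefh over Nefl was −3.51, −3.54 and −3.62 in cocaine IP libraries, −3.10, −3.56 and −3.49 in yoked IP libraries and −3.16, −3.40 and −3.49 in saline IP libraries, with −3.43 in the unbound and −3.48 in the input library. All 3 cocaine values lay below all 3 saline values. The difference was −0.21, and an exact two-sided permutation test gave p = 0.1, the smallest that 3 against 3 libraries allow (adjusted p = 0.4 over 12 tests). Ina over Nefl was −2.82, −2.26 and −2.32 in cocaine IP libraries, −2.42, −2.25 and −2.32 in yoked IP libraries and −2.40, −2.26 and −2.27 in saline IP libraries, with −2.53 in the unbound and −2.15 in the input library.

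Between libraries numbered 1 and the other 6, Ina over Nefl was lower by a log2 difference of −0.27, with no overlap (exact two-sided permutation p = 0.0119, the smallest possible, adjusted p = 0.143). Nefh over Nefl was higher by 0.26 (exact permutation p = 0.0476, adjusted p = 0.286), and Nefm over Nefl differed by 0.01 (exact permutation p = 0.940). No difference in balance passed adjustment over the 12 tests, which covered 3 ratios in 3 treatment contrasts and the contrast of numbers. In the treatment contrasts none could pass, since the exact permutation p cannot fall under 0.1 there. In the contrast of numbers a single ratio could not pass either. Its smallest exact permutation p, 0.0119, becomes 0.143 after adjustment when no other ratio reaches it. The missing call for Ina over Nefl is therefore not evidence of an even balance.

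**Figure D5:**
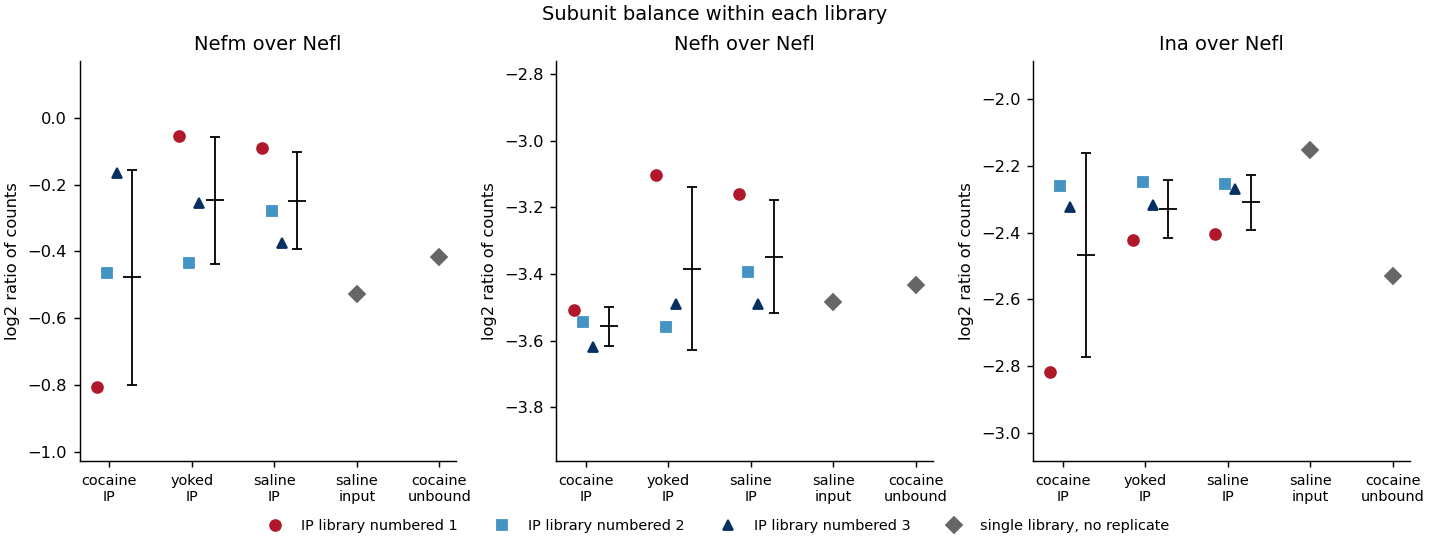
Log2 ratio of Nefm, Nefh and Ina counts over Nefl counts in every library (y axes, each spanning the same width). Points are libraries by replicate number, bars are mean and SD of 3 libraries; cocaine library 1 is lowest for Nefm over Nefl (−0.81) and Ina over Nefl (−2.82).

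No neurofilament gene lay 2-fold or more from input RNA in all 3 saline IP libraries, or from unbound RNA in all 3 cocaine IP libraries. Saline IP over saline input, in libraries 1, 2 and 3, was at a log2 ratio of 0.74, −0.05 and 0.09 for Nefl. It was 1.17, 0.20 and 0.24 for Nefm, 1.06, 0.04 and 0.08 for Nefh, and 0.49, −0.15 and −0.03 for Ina. Library 1 was above the input for each gene, and libraries 2 and 3 lay near it, with Nefm the highest. The call required each IP library to lie at least 2-fold from the input in 1 direction, and 0 of 4 members met it, beside 0.0742% of 13478 genes called higher and 0.0445% called lower. The mean log2 ratio was 0.54 ± 0.55 for Nefm (SD, n = 3), above 97.1% of genes, 0.39 ± 0.58 for Nefh, 0.26 ± 0.42 for Nefl and 0.10 ± 0.34 for Ina.

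Cocaine IP over cocaine unbound was at a log2 ratio of 0.39, 0.30 and 0.36 for Ina in libraries 1, 2 and 3, the most even of the 4, with a mean of 0.35 ± 0.05 (SD, n = 3). It was 0.68, 0.03 and 0.15 for Nefl, 0.29, −0.02 and 0.40 for Nefm, and 0.61, −0.08 and −0.04 for Nefh. Again 0 of 4 members were called, beside 0.399% of 13527 genes called higher and 2.21% called lower. The unbound library had the lowest depth, and 7.34% of its reads were ambiguous between genes, against 1.56% to 1.91% in every other library. Nefl and Ina have exons that overlap a gene of the opposite strand, and the part of ambiguous reads in their ratios was not tested. In edgeR over all 11 libraries, which takes the spread of the single libraries from the replicated groups, the adjusted p of the members was 1 over input and 0.763 to 0.940 over unbound. That fit called 0 genes over input (106 at an unadjusted p under 0.05) and 10 over unbound (1870) of 18070.

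Across the 9 IP libraries the members' log2 levels varied together, with a Pearson r between 0.86 (Nefl and Nefm) and 0.97 (Nefm and Ina). Without the libraries numbered 1, the r of member pairs was 0.57 to 0.92 over 6 libraries. These are descriptions over libraries that share the split by number. Among 8798 genes averaging 10 CPM or more, those most like the mean of the members over the 9 libraries were Wdr7, Asah2, Rab3gap2, Mical2, Tcaf1 and Rasgrf1, with r between 0.98 and 0.99. Over the 6 libraries numbered 2 or 3, r lay between 0.74 (Rasgrf1) and 0.99 (Mical2, an actin-oxidising enzyme). The 3 most like Nefl were Hsph1, Ssbp3 and Ift172, and those most like Nefm were Ncl, Pi4ka and Hspa12a, all with r between 0.88 and 0.95 over the 6 libraries numbered 2 or 3. For Nefh they were Asah2, Sez6l and Dpp6, with r over these 6 libraries of 0.86 for Asah2, 0.65 for Sez6l and 0.30 for Dpp6. For Ina they were Uhrf1bp1l, Fry and Slitrk1, with r between 0.77 and 0.80 over the 6.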

How the data were processed

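The submitters' processing notes name STAR 2.0.0e, HTSeq and the build mm10. HTSeq's version, annotation and strand setting are not stated. The deposited files hold raw counts by gene symbol, with 32537 entries in each library's file. Special entries and a row named unknown were left out, and genes took 44.9% to 52.5% of the total.

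The 9 IP libraries were fitted in edgeR 4.0.16 (R 4.3.3) with TMM scaling, the default low count filter, robust quasi-likelihood tests and Benjamini-Hochberg adjustment at 0.05 over 16417 genes, as 3 group means. Replicate number was tested beside treatment in another fit, and number by treatment in one more. DESeq2 1.42.0 was an alternative. The edgeR steps were tested on simulated counts. Ratios over the single input or unbound library used TMM over the 4 libraries concerned, a prior count of 2 and genes averaging 1 CPM or more. Subunit ratios added 0.5 to each count and were tested by exact permutation.

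Replicate number 1 set its libraries apart: deviations from group means correlated at 0.376 to 0.795 in 9 same-number pairs and at −0.740 to 0.622 in 18 others. Each negative value was of a pair with 1 library numbered 1. Among libraries numbered 2 or 3, same-number pairs ran between 0.376 and 0.623 and other pairs between 0.370 and 0.622. The numbers 2 and 3 were thus not seen to pair libraries. The numbers come from the labels, which do not say what they mark. In the labels of the IP libraries each number also goes with its own library index, the short sequence that tags a library's reads. Number and index therefore cannot be told apart.

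The 4 genes, the partner lists and the markers were chosen with earlier results of these data known. Of the partner lists the 8 genes with the largest log2 change past the test were taken, 1 of which is not reported here, of genes alike in level the 6 closest to the mean and the 3 closest to each member. No 2 libraries of a group agreed within counting noise. Exon positions are from GENCODE M21, and the RefSeq model of Nefm is on the same build, GRCm38 (mm10). Counts without molecular identifiers include PCR copies.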

Additional observations from a re-analysis of the deposited data

Results flagged for a closer look

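For Nefm the change of library 1 against libraries 2 and 3 passed a test of the difference between groups, with a log2 value of −0.97 ± 0.23 (SE) in cocaine minus yoked (edgeR adjusted p = 0.0316). In cocaine minus saline the value was −0.86 ± 0.23 (SE) and was not called (edgeR adjusted p = 0.0888), though 3 of 10 alternatives called it. Each side rests on 1 library numbered 1, in which Nefm stood at 465 CPM in cocaine, against 824 CPM in yoked and 807 CPM in saline. Over 10 alternatives the adjusted p in cocaine minus yoked lay between 0.000467 and 0.0772, but none of them can leave out either library numbered 1, so they do not bear on whether 1 library sets the value. The test was chosen after the values were seen.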

How the results depend on the processing

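With the replicate number as a block, edgeR called 0 genes in each treatment contrast as without it. Cocaine over saline was then at log2 0.02 ± 0.11 (SE) for Nefl and −0.18 ± 0.17 for Nefm. It was −0.18 ± 0.13 for Nefh and −0.13 ± 0.13 for Ina. Balance ratios had no call with the block either, but an exact test on 3 paired differences allows no p under 0.05, so none could be made. The rise of the 4 genes in libraries numbered 1 passed the test under each of the 14 alternatives. For Ina it passed narrowly. Over these edgeR and DESeq2 fits its highest adjusted p was 0.0497, against 0.0112 for Nefm and lower values for Nefl and Nefh. No member passed in a treatment contrast under any of the 16.

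Without the 3 libraries numbered 1, cocaine over saline was 0.089 for Nefm and 0.029 for Ina, and cocaine over yoked 0.16 for Nefm, 0.060 for Nefh and 0.11 for Ina. For Nefl, cocaine over saline was −0.0049 with relative log expression scaling and −0.0060 in DESeq2. With no low count filter, edgeR called 8 genes in number 3 against 2, and for the number 1 effect 448 in cocaine minus saline, 990 in cocaine minus yoked and 7 in yoked minus saline. DESeq2 called 44, 371 and 940 in the first 3. With no filter on low values, 632 genes were called over input and 1326 over unbound, and edgeR over 11 libraries called 0 and 10. Nefm averaged 138 CPM per kilobase of its longest transcript. The cause was not tested.

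Leaving out 1 library at a time, cocaine over saline ran between −0.22 and 0.29 for Nefl, −0.47 and 0.12 for Nefm, −0.49 and 0.18 for Nefh, and −0.32 and 0.055 for Ina. Yoked over saline ran between −0.34 and 0.25 for Nefl, −0.46 and 0.38 for Nefm, −0.55 and 0.38 for Nefh, and −0.30 and 0.17 for Ina. Cocaine over yoked ran between −0.19 and 0.35 for Nefl, −0.49 and 0.19 for Nefm, −0.46 and 0.32 for Nefh, and −0.23 and 0.14 for Ina. Number 3 over 2 for Ina ran between −0.0076 and 0.17, and 0 to 7 genes were called there, 7 without cocaine library 1. For the number 1 effect, Nefm in yoked minus saline ran between −0.034 and 0.25. Genes called in cocaine minus saline ran between 0 (without saline library 3) and 172 (without yoked library 3), and in cocaine minus yoked between 210 (without yoked library 2) and 538. Over input 26 to 68 genes were called and over unbound 428 to 635, against 16 and 353 with all libraries. Ina over Nefl ran between −0.26 and 0.017 in cocaine minus saline, −0.24 and 0.038 in cocaine minus yoked and −0.068 and 0.026 in yoked minus saline. Nefh over Nefl ran between −0.18 and 0.059 in yoked minus saline. Nefm over Nefl ran between −0.097 and 0.094 in yoked minus saline and −0.12 and 0.26 for number 1. With 3 libraries a group, 1 input and 1 unbound library, precision is limited by libraries and not by depth.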
